A study of Mus musculus with 22 samples.

Results

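Atf4, Atf5, Ddit3 and Atf3 encode transcription factors of the integrated stress response, and arrays of anterior neural tubes give their RNA levels after arsenic was given to pregnant mice. The members were the probes whose platform gene symbol is 1 of these 4 names. Each name had 1 probe, so the account covers 4 of the 9230 genes on the array, and all 4 probes passed the filter on dim probes. Every embryo, in both arms, came from Folr2-/- mice, which lack a folate-binding membrane protein, so no group holds embryos with the intact gene. Dams of the arsenic arm were injected intraperitoneally with sodium arsenate in water, 9.6 mg of arsenic per kg, at hour 12 of gestational days (GD) 7 and 8, and dams of the control arm with water alone, 10 µL per g, at the same hours. Embryos were collected 3 h (GD8:15), 12 h (GD9:00) and 24 h (GD9:12) after the second injection. There were 4 control arrays at each of GD8:15 and GD9:00 and 3 at GD9:12. Arsenic arrays numbered 4 at the earliest and the latest stage and 3 between them. The labels do not say how many embryos or litters an array stands for, so p-values measure the spread between these 22 arrays, which may in part be technical.

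The integrated stress response starts when a kinase that senses haem shortage, amino acid shortage, viral RNA or unfolded protein phosphorylates the translation factor eIF2. General translation then slows, while open reading frames upstream of the coding sequence let Atf4 and Atf5 messages be translated more, so that the RNA level of these genes shows only part of their control. ATF4 in turn switches on genes of amino acid uptake and synthesis, redox defence and tRNA charging, and it induces Atf5, Ddit3 and Atf3, whose products take the response further towards recovery or cell death. Arsenic compounds are textbook inducers of this response in cultured cells, through the haem-regulated kinase and others.

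RNA was measured on 1-colour CodeLink arrays, whose spots are oligonucleotide probes read by the brightness of a fluorescent dye. Among 92 genes with 2 tested probes the median correlation of the pair was 0.0489. A probe may therefore not report the gene whose symbol it carries, and gene names below stand for probes. Each member had 1 probe, so no other probe could check it. Deposited intensities lay between 56 and 85027, and the median of an array between 123 and 291. At GD9:00 the 4 control arrays had medians of 123 to 132 and the 3 arsenic arrays of 153 to 199, a difference that quantile normalisation, which gives every array the same distribution of values, removes. Of 26 listed neural tube and progenitor markers 18 were tested, and Six3, En1, Msx1, Pax3 and Sox11 lay above percentile 91 of mean intensity. After that normalisation, 11, 13 and 14 of the 18 were lower in the arsenic arrays at GD8:15, GD9:00 and GD9:12. Of all tested probes 50.1%, 51% and 46.2% had a positive difference at these stages. At GD8:15 mean En1 was 11.56 in controls and 9.98 in arsenic arrays, and mean Sox11 was 9.62 and 8.84 (log2 intensity). The other 7 of the 18 were higher there, among them Msx1 (10.5 and 11.3) and Pax3 (10.4 and 10.7). Some markers of other cell types moved with the arms. At GD8:15 the summed linear intensity of 14 heart and muscle markers was 20207 to 38723 in controls and 6952 to 14385 in arsenic arrays. Of the 14, 4 were higher in the arsenic arrays, beside 50.1% of all probes. Myl7 and Actc1, the brightest of the 14 at that stage, weigh most in the sum. Their means were 13.31 and 13.29 in controls and 11.49 and 11.71 in arsenic arrays. Nkx2-5, among the 14, lay at a mean percentile of 44.3, and Tnnt2, at 19.8, was too dim to be tested. At GD9:00 the same sum ran from 5887 to 22442 and from 11641 to 28561, with 12 of 14 higher, beside 51% of all probes. The sum of 7 blood markers ran from 7070 to 10542 in controls and from 5994 to 31668 in arsenic arrays at GD8:15. Hba-a1, the brightest of the 7 there, had means of 12.36 and 13.32. The sums for endothelium, mesenchyme, and endoderm with surface ectoderm overlapped between arms at that stage. By single markers, 6 of 8, 2 of 10 and 6 of 14 in that order were higher in the arsenic arrays, beside 50.1% of all probes. At GD9:00, 2 of 10 mesenchyme markers were again higher, beside 51% of all probes. Xist, which marks female tissue, read 7.02 to 7.10 in controls and 7.86 to 9.06 in arsenic arrays at GD8:15, 7.10 to 8.71 against 9.77 to 10.35 at GD9:00, and 6.88 to 11.34 against 6.93 to 7.15 at GD9:12. The 3 Y-linked genes did not move together. Eif2s3y read 7.66 to 7.79 in controls and 7.11 to 7.30 in arsenic arrays at GD8:15, 7.06 to 7.89 against 7.02 to 7.18 at GD9:00, and 7.06 to 7.66 against 7.52 to 8.14 at GD9:12. Mean Kdm5d was 10.84 in controls and 10.73 in arsenic arrays at GD8:15, and 10.00 and 10.91 at GD9:00; mean Uty was 7.38 and 7.25, then 7.12 and 7.42. The part of tissue make-up and of embryo sex in the differences below was not tested. In pieces of tissue, fewer cells of a type and less RNA per cell cannot be told apart.

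After quantile normalisation the Atf4 probe read higher on all arsenic arrays than on all controls 3 h after the second injection. The arms overlapped at both later stages. Atf4 encodes the basic leucine zipper factor at the centre of the response (probe 6863, NM_009716; the gene spans chr15:80255184-80257545 on GRCm38.p6, plus strand). Values are log2 intensities after quantile normalisation, in the order of replicates. At GD8:15 Atf4 read 11.04, 12.71, 12.61 and 11.98 on control arrays and 12.90, 13.91, 13.13 and 13.49 on arsenic arrays. Control replicate 1 stood lowest, yet the highest control still lay under the lowest arsenic array. The separation depended on the scaling. In deposited intensity, control replicate 3 (6334, array median 128) lay above arsenic replicate 3 (5953, array median 291). The difference was 1.27 ± 0.31 (standard error, SE), or 2.42-fold, with a 95% interval of 0.62 to 1.93 and an exact two-sided permutation p of 0.0286, the smallest that 4 against 4 arrays allow. In limma, a linear model fitted to every probe with p-values adjusted by the Benjamini-Hochberg method, its rank by p was 18 of 7833, with an adjusted p of 0.295, so it did not pass the threshold of 0.05. Without control replicate 1 the difference was 0.93, and on the 6 arrays whose title codes start alike it was 1.02.

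At GD9:00 Atf4 read 12.75, 12.81, 12.69 and 13.16 on control arrays and 13.70, 12.44 and 13.17 on arsenic arrays. Arsenic replicate 2 was the lowest of the 7 arrays, and replicate 3 lay just above the highest control. The difference of 0.25 ± 0.34 had an interval of -0.46 to 0.96, turned to -0.48 when array medians were subtracted in place of quantile normalisation, and was -0.045 without arsenic replicate 1 and 0.58 without replicate 2. At GD9:12 the probe read 12.08, 12.27 and 12.22 on control arrays and 11.65, 12.00, 12.22 and 11.88 on arsenic arrays, so 3 of 4 arsenic arrays lay below every control. The difference there was -0.25 ± 0.34 (limma adjusted p = 1). By group means, Atf4 was highest in arsenic GD8:15 arrays (13.36 ± 0.44, SD, n = 4), followed by arsenic GD9:00 (13.10 ± 0.63, n = 3), control GD9:00 (12.85 ± 0.21, n = 4), control GD9:12 (12.19 ± 0.094, n = 3), control GD8:15 (12.09 ± 0.77, n = 4) and arsenic GD9:12 (11.94 ± 0.24, n = 4). In that order the ranges of neighbours overlapped except between control GD9:00 and control GD9:12, and that step of -0.66 ± 0.34 did not pass (limma adjusted p = 0.22).

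Atf5, like Atf4 after quantile normalisation, was higher on all arsenic arrays than on all controls at GD8:15. Its arms overlapped at both later stages. Its replicates were tighter than those of Atf4 at GD8:15 and GD9:00, but not at GD9:12. Atf5 encodes a related factor that ATF4 induces and that is known for mitochondrial stress signalling and for holding back the differentiation of neural progenitors (probe 8490, NM_030693; chr7:44812256-44816658, minus strand). At GD8:15 it read 8.14, 8.31, 8.22 and 8.06 on control arrays and 8.52, 8.97, 9.32 and 8.90 on arsenic arrays. The groups did not overlap. The difference was 0.74 ± 0.18 (1.68-fold, interval 0.37 to 1.12), with an exact two-sided permutation p of 0.0286, rank 15 by limma p and an adjusted p of 0.269. At GD9:00 it read 8.64, 8.70, 8.46 and 8.70 on control arrays and 9.07, 8.63 and 9.38 on arsenic arrays. Arsenic replicates 1 and 3 stood above every control and replicate 2 stood among them. The difference was 0.40 ± 0.19 (limma adjusted p = 0.399), and -0.044 when array medians were subtracted. It was 0.22 without arsenic replicate 3 and 0.60 without replicate 2.

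At GD9:12 Atf5 read 8.00, 8.20 and 8.05 on control arrays and 7.98, 7.45, 8.03 and 8.25 on arsenic arrays, a difference of -0.15 ± 0.19. Arsenic replicate 2 was lowest there. The 31 probes with the nearest probe numbers read low on the same array, with a median of -0.20, and the part of this in the value was not tested. The order of group means was arsenic GD9:00 (9.02 ± 0.38, SD, n = 3), arsenic GD8:15 (8.93 ± 0.33, n = 4), control GD9:00 (8.63 ± 0.11, n = 4), control GD8:15 (8.18 ± 0.11, n = 4), control GD9:12 (8.08 ± 0.11, n = 3) and arsenic GD9:12 (7.93 ± 0.34, n = 4). Neighbours in this order overlapped except control GD9:00 and control GD8:15, which differed by 0.44 ± 0.18 without passing (limma adjusted p = 0.0955).

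Ddit3 stood above every control on 3 of 4 arsenic arrays at GD8:15 and on 2 of 3 at GD9:00. Ddit3 encodes CHOP, a factor induced late in the response that heterodimerises with C/EBP proteins and is known for promoting cell death (probe 747, NM_007837; chr10:127290793-127296291, plus strand). Its control arrays lay between intensities of 96 and 232, near the array medians, so small fold values are uncertain. At GD8:15 it read 7.82, 7.70, 7.82 and 7.64 on control arrays and 8.54, 8.23, 8.64 and 7.50 on arsenic arrays. Arsenic replicate 4 was the lowest of the 8 arrays, and on that array the 31 probes of nearest probe number also read low, with a median of -0.23. The difference was 0.48 ± 0.27 (interval -0.07 to 1.04, limma adjusted p = 0.785), and 0.73 without that replicate.

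At GD9:00 Ddit3 read 7.88, 7.23, 7.58 and 7.59 on control arrays and 9.13, 7.54 and 8.59 on arsenic arrays. Arsenic replicate 2 again lay within the control range. The difference was 0.85 ± 0.29 (1.80-fold, interval 0.25 to 1.45), with a limma adjusted p of 0.281. Without arsenic replicate 2 it was 1.29 and passed (limma adjusted p = 0.0471), and without replicate 1 it was 0.51 (adjusted p = 1). With arrays weighted by their agreement with the model it was 1.15 and also passed (limma adjusted p = 0.036). At GD9:12 the probe read 7.22, 7.56 and 7.59 on control arrays and 7.68, 7.59, 7.52 and 7.82 on arsenic arrays, a difference of 0.19 ± 0.29. Group means ran from arsenic GD9:00 (8.42 ± 0.81, SD, n = 3) through arsenic GD8:15 (8.23 ± 0.52, n = 4), control GD8:15 (7.75 ± 0.089, n = 4), arsenic GD9:12 (7.65 ± 0.13, n = 4) and control GD9:00 (7.57 ± 0.27, n = 4) to control GD9:12 (7.46 ± 0.21, n = 3), and every pair of neighbours overlapped.

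Atf3 had the tightest controls of the 4 probes and the widest arsenic groups at GD8:15 and GD9:00. Atf3 encodes a stress-induced factor that mostly represses transcription and dampens inflammatory and stress genes (probe 4281, NM_007498; chr1:191170296-191183333, minus strand). Control intensities of 104 to 235 were near the array medians here as well. At GD8:15 it read 7.70, 7.71, 7.60 and 7.66 on control arrays and 8.92, 7.01, 9.10 and 8.73 on arsenic arrays. Of the arsenic arrays 3 stood at least 1 log2 unit above every control and replicate 2 lay below all of them; the 31 probes of nearest probe number had a median of -0.34 on replicate 2. The difference was 0.77 ± 0.35 (limma adjusted p = 0.646), and 1.25 without that replicate. Leaving out runs of low signal drops the same value of this probe and also gave 1.25. The difference was 0.32 with array weights and 0.56 without arsenic replicate 3.

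At GD9:00 Atf3 read 7.40, 7.34, 7.29 and 7.34 on control arrays and 8.55, 7.39 and 9.07 on arsenic arrays, again with replicate 2 within the control range. The difference was 0.99 ± 0.38 (1.99-fold, interval 0.20 to 1.78; limma adjusted p = 0.321), 1.47 without replicate 2 and 0.63 without replicate 3 (adjusted p = 1). At GD9:12 it read 7.38, 7.50 and 7.38 on control arrays and 7.63, 7.56, 7.54 and 7.38 on arsenic arrays, a difference of 0.11 ± 0.38, with 3 of 4 arsenic arrays just above the controls. The order of group means was arsenic GD8:15 (8.44 ± 0.96, SD, n = 4), arsenic GD9:00 (8.33 ± 0.86, n = 3), control GD8:15 (7.67 ± 0.049, n = 4), arsenic GD9:12 (7.53 ± 0.11, n = 4), control GD9:12 (7.42 ± 0.071, n = 3) and control GD9:00 (7.34 ± 0.043, n = 4), with overlap between all neighbours.

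**Figure D1:**
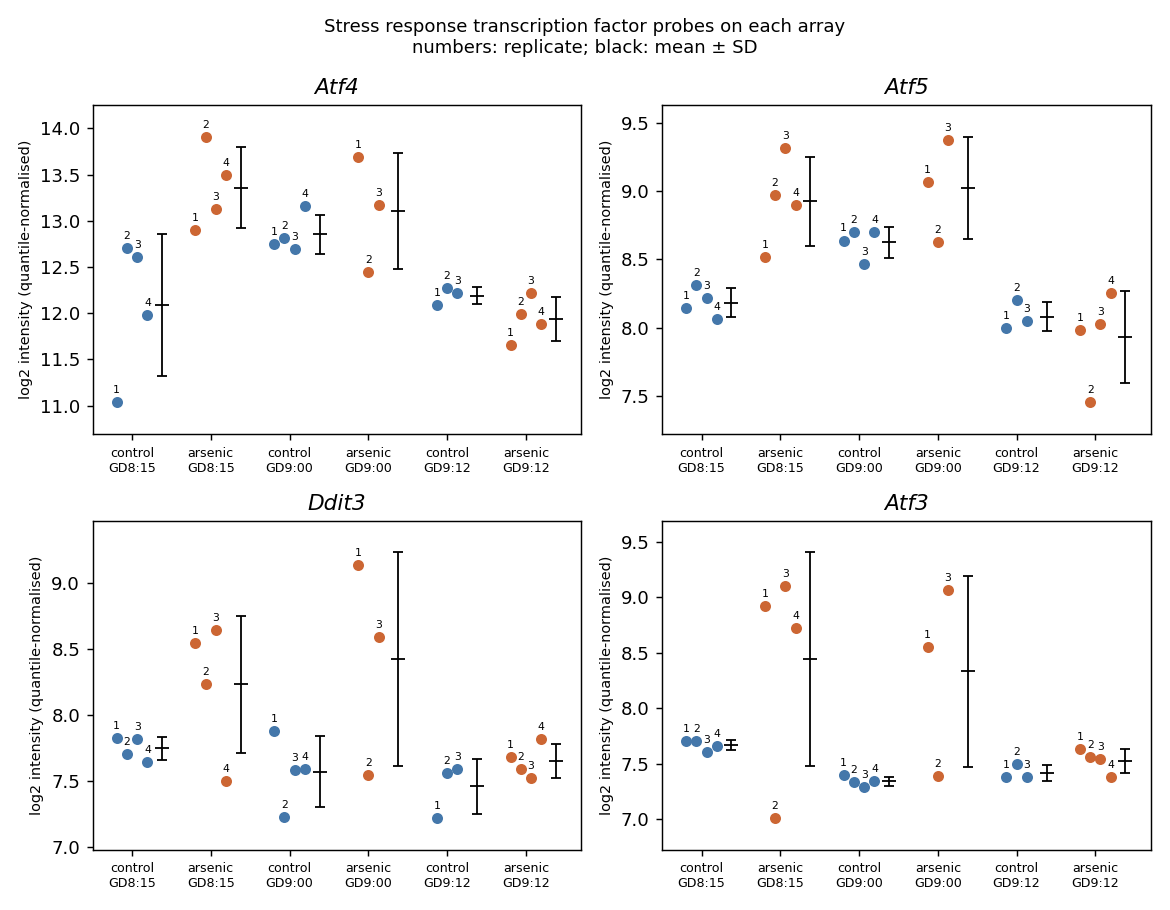
Log2 intensity after quantile normalisation of the 4 probes on each of the 22 arrays, controls in blue and arsenic in orange, with the replicate number above each point and the mean ± SD in black beside each group. At GD8:15 the arms of Atf4 and Atf5 do not overlap on this scale. At GD9:00 arsenic replicate 2 lies within or below the control range in every panel. Replicates 1 and 3 lie above the controls, replicate 3 only just for Atf4.

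Counted over the members at GD8:15, 0 of the 4 probes passed after adjustment, as did 0 of all 7833 tested probes (0%) in limma. At an unadjusted p under 0.05, Atf4, Atf5 and Atf3 were higher, against 313 of the tested probes (4%), while 258 (3.29%) were lower. After quantile normalisation, every arsenic array lay above every control in 2 of the 4, Atf4 and Atf5, against 150 tested probes (1.91%). At GD9:00, Atf3 and Ddit3 were higher at an unadjusted p under 0.05, against 357 probes (4.56%) higher and 628 (8.02%) lower. There 0 of 4 had every arsenic array above every control, against 189 probes (2.41%). At GD9:12, 0 of 4 had an unadjusted p under 0.05, against 39 probes higher (0.498%) and 61 lower (0.779%). The members were chosen with earlier results of these data known. These counts therefore carry no test, and the unadjusted and permutation p-values of single members only describe them. Averaged over the 3 stages with equal weight, the differences were 0.62 ± 0.21 for Atf3, 0.51 ± 0.16 for Ddit3, 0.42 ± 0.19 for Atf4 and 0.33 ± 0.11 for Atf5. With array medians subtracted they were 0.49, 0.40, 0.051 and 0.064 in that order. Unadjusted p-values of these averages ran from 0.00548 to 0.0387 and adjusted ones from 0.862 to 0.865, against 448 probes (5.72%) under 0.05 unadjusted.

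The stage of the highest arsenic difference was not the same for every probe, but the change of the effect between stages was not called for any of them. Between GD8:15 and GD9:12 the arsenic difference of Atf4 changed by -1.53 ± 0.46 (unadjusted p = 0.00385, limma adjusted p = 0.9) and that of Atf5 by -0.90 ± 0.26 (unadjusted p = 0.00287, adjusted p = 0.8), against 325 probes (4.15%) under 0.05 unadjusted. For Atf3 the change was -0.66 ± 0.51 and for Ddit3 -0.29 ± 0.39. From GD8:15 to GD9:00 the difference of Atf4 moved by -1.02 ± 0.46, that of Atf5 by -0.35 ± 0.26, that of Atf3 by 0.22 ± 0.51 and that of Ddit3 by 0.37 ± 0.39, and the value of Atf3 turned to -0.26 without arsenic GD8:15 replicate 2. In the F test over the 3 stages the unadjusted p was 0.0102 for Atf5 and 0.0114 for Atf4 (limma adjusted p = 0.692 for both), and 0.25 for Atf3 and 0.292 for Ddit3, with 504 of 7833 probes (6.43%) under 0.05 and 0 called.

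**Figure D2:**
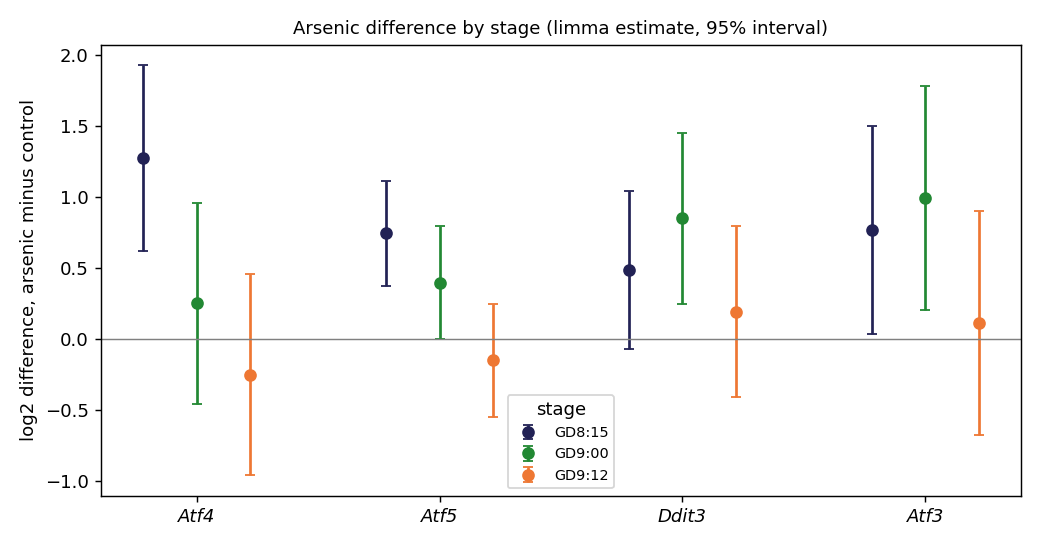
Estimated log2 difference, arsenic minus control, for each probe at GD8:15, GD9:00 and GD9:12, with 95% intervals from the limma fit of all 22 arrays. In that order of stages Atf4 stands at 1.27, 0.25 and -0.25, and Atf5 at 0.74, 0.40 and -0.15. Ddit3 stands at 0.48, 0.85 and 0.19, and Atf3 at 0.77, 0.99 and 0.11.

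Within the arsenic arm the fall towards GD9:12 was called for Atf4 and Atf5. From GD8:15 to GD9:12 Atf4 fell by 1.42 ± 0.31 on the log2 scale (limma adjusted p = 0.00567) and Atf5 fell by 1.00 ± 0.18 (adjusted p = 0.00125), with no overlap between the stages in either. Atf3 (-0.91 ± 0.35, adjusted p = 0.0878) and Ddit3 (-0.58 ± 0.27, adjusted p = 0.154) did not pass. The 2 called members stand against 516 of 7833 probes called lower (6.59%) in that comparison. From GD9:00 to GD9:12 Atf5 fell by 1.09 ± 0.19 (limma adjusted p = 0.00411), against 155 probes called lower (1.98%). Over the same interval Atf4 changed by -1.17 ± 0.34 (adjusted p = 0.0634), Atf3 by -0.80 ± 0.38 (adjusted p = 0.289) and Ddit3 by -0.77 ± 0.29 (adjusted p = 0.166).

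The calls across stages depended on the scaling. On the scale of the authors, which set a different array mean at each stage, Atf4 changed by -0.27 from arsenic GD8:15 to GD9:12 (limma adjusted p = 0.695), and it also changed by -0.27 with array medians subtracted (adjusted p = 0.667). Atf5 kept its call between GD8:15 and GD9:12 under both (-0.71, adjusted p = 0.0361 and 0.0057), but lost it between GD9:00 and GD9:12 on the scale of the authors (-0.47, adjusted p = 0.206). With the start of the title code as a block, from GD8:15 to GD9:12, Atf4 changed by -1.68 (adjusted p = 0.258) and Atf5 by -1.03 (adjusted p = 0.361), so neither passed; all arsenic arrays of GD8:15 share a code start that no later array has, and the labels do not say what the codes mean. In the control arm 0 of the 4 probes were called between any pair of stages. Atf4 and Atf5 stood 0.77 ± 0.31 and 0.44 ± 0.18 higher in GD9:00 than in GD8:15 controls (limma adjusted p = 0.102 and 0.0955), where 1174 probes (15%) were called, and Atf3 and Ddit3 differed by -0.33 ± 0.35 and -0.18 ± 0.27. From GD9:00 to GD9:12, where 883 probes (11.3%) were called, Atf5 changed by -0.55 ± 0.19 (adjusted p = 0.0736). From GD8:15 to GD9:12, where 604 (7.71%) were called, the control differences were 0.10 ± 0.34 for Atf4, -0.10 ± 0.19 for Atf5, -0.25 ± 0.38 for Atf3 and -0.29 ± 0.29 for Ddit3. The comparisons within the arsenic arm share its GD9:12 arrays and also carry the difference between stages itself.

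Array by array, the 4 probes did not always rise above the controls together. At GD8:15 all 4 exceeded the highest control of the stage on arsenic replicates 1 and 3, and 3 of 4 did on replicates 2 and 4, the exceptions being Atf3 and Ddit3. At GD9:00 all 4 did so on replicates 1 and 3 and 0 of 4 on replicate 2. For Atf4 on replicate 3 the margin was small, 13.17 against 13.16 on the highest control. Its deposited intensity there (5359) lay below those of control replicates 2 (5367) and 4 (7169). At GD9:12 the count was 1 or 2 of 4 on each arsenic array. Over the 22 arrays Atf4 and Atf5 had a Pearson correlation of 0.79, and Atf3 and Ddit3 of 0.68, while Atf3 and Atf4 had 0.36; these values describe arrays that share stage, arm and scaling. After subtraction of group means they were 0.32, 0.40 and -0.10, so most of the likeness of Atf4 and Atf5 lay between groups.

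**Figure D3:**
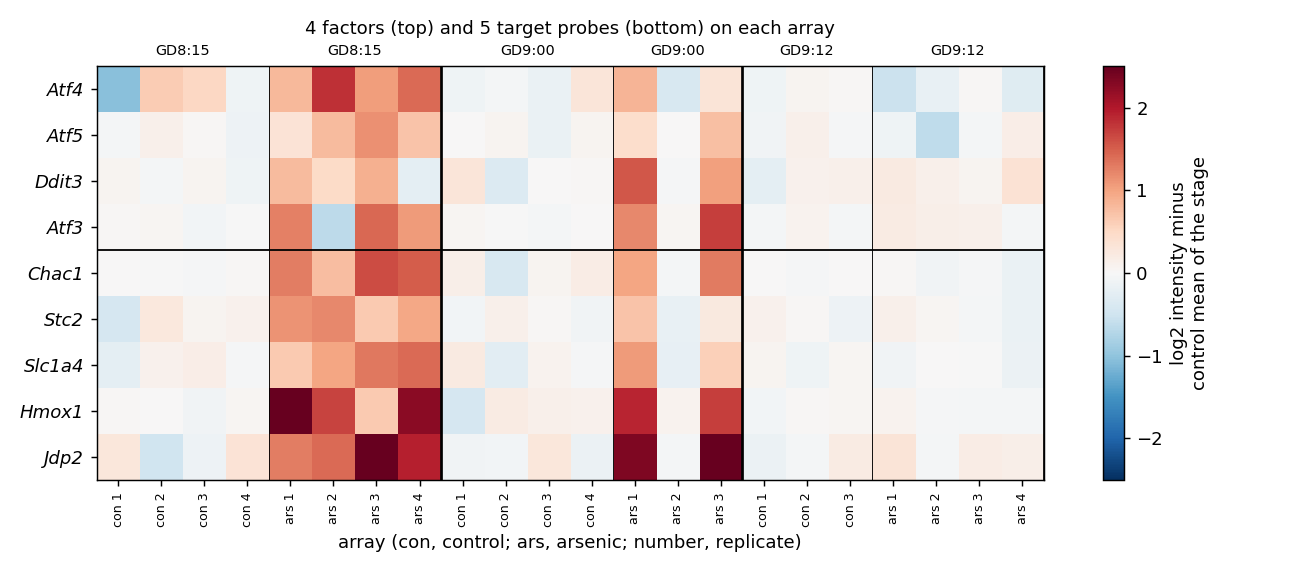
Log2 intensity minus the control mean of the stage for the 4 factors (upper rows) and the 5 target genes of lowest p at GD8:15 (lower rows), 1 column per array; the colour scale ends at 2.5 above and below 0, and 3 values beyond it take the end colour. Arsenic GD9:00 replicate 2 is close to its controls for the 5 targets too, between -0.20 and 0.09, while replicates 1 and 3 are higher.

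Of 38 tested targets known for ATF4 or CHOP, 31 had a positive difference at GD8:15, with a median of 0.23, beside 50.1% of all probes and a median near 0. At an unadjusted p under 0.05, 12 were higher (4% of all probes) and 0 lower (3.29%), and 7 had every arsenic array above every control (1.91%). The list was drawn up with results of these data known, so it carries no test. After adjustment 0 passed in limma, the lowest adjusted p being 0.0513 for Chac1, which degrades glutathione (1.30 ± 0.22), and for Stc2, a secreted glycoprotein hormone (0.98 ± 0.17). Slc1a4, a transporter of neutral amino acids, differed by 1.09 ± 0.21 and Hmox1, the haem oxygenase, by 1.78 ± 0.35 (adjusted p = 0.0733 and 0.0928). Jdp2, a repressor that pairs with Jun proteins, differed by 2.13 ± 0.54 (adjusted p = 0.326). These 5 genes were above every control on all 4 arsenic arrays.

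The other targets differed widely in size at GD8:15. Asns, the asparagine synthetase, differed by 0.96 ± 0.32 and Mthfd2, of mitochondrial one-carbon metabolism, by 1.55 ± 0.59. The autophagy receptor Sqstm1 differed by 1.09 ± 0.38, the translation repressor Eif4ebp1 by 1.12 ± 0.51, and Vldlr, a lipoprotein receptor, by 0.42 ± 0.18. The cystine transporter Slc7a11 stood at 0.022 ± 0.077, Vegfa, the vascular growth factor, at 0.014 ± 0.14 and Ddit4, an inhibitor of mTOR signalling, at 0.012 ± 0.20. Of the tRNA synthetases, Sars, Nars, Tars, Wars and Cars had values between -0.026 and 0.51 and none had an unadjusted p under 0.05.

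At GD9:00, 29 of the 38 targets had a positive difference (median 0.21, beside 51% of all probes), 10 were higher (4.56% of all probes) and 1 lower (8.02%) at an unadjusted p under 0.05, and 4 stood above every control on all 3 arsenic arrays (2.41%). The targets of lowest p were Tnfrsf10b, a death receptor that CHOP induces (0.79 ± 0.22), Hmox1 (1.24 ± 0.38), Ddit4 (0.70 ± 0.22), Chac1 (0.74 ± 0.24) and Jdp2 (1.82 ± 0.59), with limma adjusted p from 0.243 to 0.267. Tnfrsf10b and Ddit4 were higher on 3 of 3 arsenic arrays, whereas both had differed by -0.11 ± 0.20 and 0.012 ± 0.20 at GD8:15; the change itself was not tested for them. Hmox1, Chac1 and Jdp2 were above the controls on replicates 1 and 3 alone. At GD9:12, 20 of 38 targets had a positive difference, beside 46.2% of all probes, the median was 0.0099, and 0 had an unadjusted p under 0.05 in either direction. On the scale of the authors the target medians were 0.37 at GD8:15 and 0.59 at GD9:00, beside shifts of 0.21 and 0.43 in the median of all probes.

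ATF4 acts with C/EBP partners at a composite element, the CARE, whose letters are TGATGNAA. The 250 bases before the RefSeq transcript start were searched on both strands for it, for a CRE-like element (TGACGTNA) and for the AP-1 element TGACTCA, on GRCm38.p6. The promoters of Atf3 and Ddit3 are shown because they hold matches, given in capitals; Atf4 and both Atf5 windows held none of the 3, which says only that these letters are not in those windows.
Atf3 promoter (chr1:191183334-191183583, minus strand): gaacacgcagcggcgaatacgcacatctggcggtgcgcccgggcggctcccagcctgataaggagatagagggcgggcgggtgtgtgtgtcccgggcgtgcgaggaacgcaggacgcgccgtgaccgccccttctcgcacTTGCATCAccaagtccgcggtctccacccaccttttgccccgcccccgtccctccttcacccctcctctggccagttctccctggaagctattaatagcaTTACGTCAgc
Ddit3 promoter (chr10:127290543-127290792, plus strand): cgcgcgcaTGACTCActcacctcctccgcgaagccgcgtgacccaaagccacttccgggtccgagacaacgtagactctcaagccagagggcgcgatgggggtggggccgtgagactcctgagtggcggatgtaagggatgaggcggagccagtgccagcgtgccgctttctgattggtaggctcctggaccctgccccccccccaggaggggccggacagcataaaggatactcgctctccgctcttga
In Atf3 the CARE lies 110 to 103 bases before the start and the CRE-like element 10 to 3 bases before it, both read on the opposite strand. In Ddit3 the AP-1 element lies 242 to 236 bases before the start. Of all 32851 promoter windows 3.45% held a CARE, 2.52% the CRE-like element and 4.46% the AP-1 element.

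Among the listed targets with a promoter window, 12 of 49 genes (24.5%) held a CARE, against 3.91% of all 27025 genes; the list was built from known ATF4 targets, so this describes the list. Windows around the element, with the element in capitals, are shown for targets measured here that had high and low differences.
Chac1 (chr2:119351041-119351064, plus strand): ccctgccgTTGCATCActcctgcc
Asns (chr6:7693217-7693240, minus strand): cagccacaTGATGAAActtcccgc
Jdp2 (chr12:85599375-85599398, plus strand): gccggggcTGATGCAAcccgtccc
Vldlr (chr19:27216812-27216835, plus strand): agcaatagTTGCATCAgcgctcct
Tars (chr15:11399659-11399681, minus strand): gagtcccgTTGCATCAgctggtt
Slc7a11 (chr3:50443645-50443668, minus strand): tggagaatTTGCATCAtcatgcag
Slc7a11 (chr3:50443664-50443687, minus strand): catgtggcTGATGCAAacctggag
At GD8:15 the differences of these genes ran from 2.13 for Jdp2 through 1.30 for Chac1, 0.96 for Asns and 0.42 for Vldlr to 0.14 for Tars and 0.022 for Slc7a11. The last holds the element at both places shown. A match therefore went with high and with low differences, and binding was not measured.

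**Figure D4:**
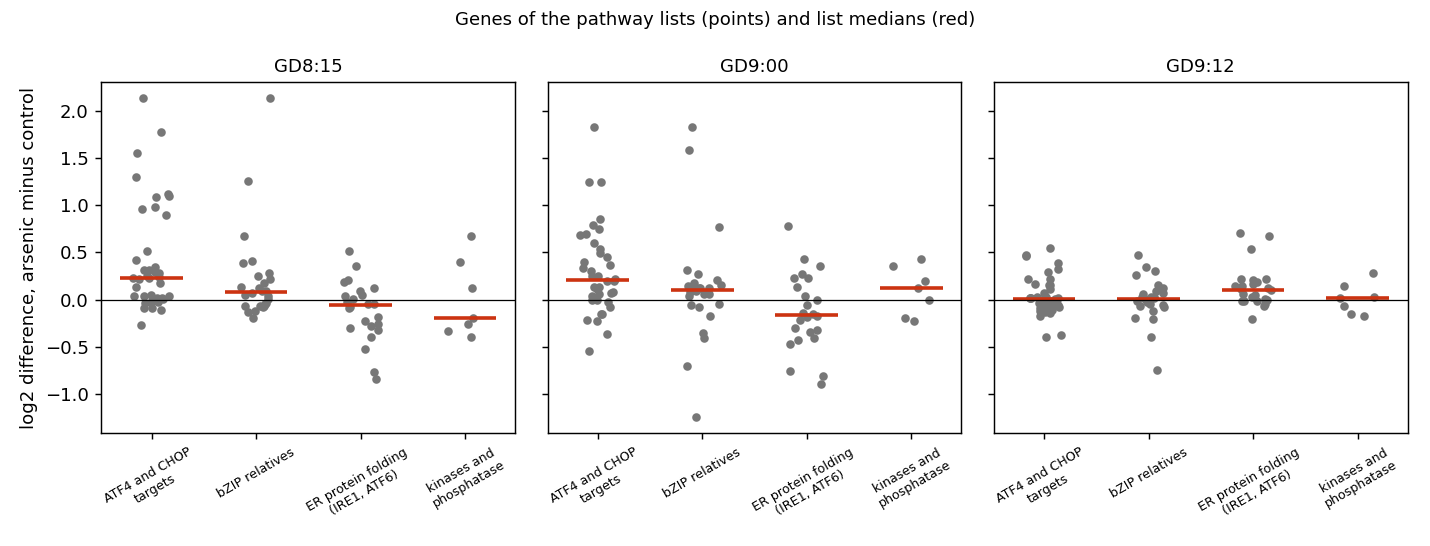
Log2 difference, arsenic minus control, of every tested gene (grey points, brightest probe per gene) in 4 lists of the pathway at each stage, with the list median in red. Target medians are 0.23 and 0.21 at GD8:15 and GD9:00 and 0.0099 at GD9:12, and the medians of the endoplasmic reticulum protein-folding list are -0.06, -0.16 and 0.11.

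The kinases and phosphatase factors that switch the response on and off showed no common direction. Of 7 tested genes, 3 were higher at GD8:15 (median -0.20) and 4 at GD9:00 (median 0.13), beside 50.1% and 51% of all probes. Impact, which restrains the amino acid sensing kinase GCN2, differed by 0.67 ± 0.17 at GD8:15 (unadjusted p = 0.00109, limma adjusted p = 0.34) and was above every control on 4 of 4 arsenic arrays. Eif2ak1, the haem-regulated kinase, read below every control on the 4 arsenic arrays with a difference of -0.20 ± 0.13. Ppp1r15a, the stress-induced subunit of the eIF2 phosphatase, stood at 0.40 ± 0.26 at GD8:15 and 0.36 ± 0.28 at GD9:00. Dnajc3, which inhibits eIF2 kinases, stood at -0.39 ± 0.31 and 0.43 ± 0.34, and Eif2ak3, the kinase PERK, at -0.33 ± 0.33 and -0.22 ± 0.35. On the scale of the authors the medians of this list were 0.08 and 0.63.

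Genes of the other branches of the unfolded protein response, which IRE1 and ATF6 drive, had negative differences for most members at both early stages. Of 24 tested, 15 were lower at GD8:15 (median -0.06) and 15 at GD9:00 (median -0.16), beside 50.1% and 51% of all probes with a positive difference. At an unadjusted p under 0.05, 0 were higher at either stage; 1 was lower at GD8:15, near the 3.29% of all probes, and 5 at GD9:00, beside 8.02%. Hspa5, the chaperone BiP, stood at -0.84 ± 0.37 and -0.89 ± 0.40 (limma adjusted p = 0.641 and 0.375), and it was below every control on 3 of 4 and 2 of 3 arsenic arrays. At GD9:00 the protein disulphide isomerase Pdia6 stood at -0.81 ± 0.22, Derl2, of the degradation channel, at -0.43 ± 0.17, Xbp1, the factor spliced by IRE1, at -0.40 ± 0.16 and Mbtps1, the protease that cleaves ATF6, at -0.19 ± 0.074. At GD8:15 the calcium-binding chaperone Calr stood at -0.52 ± 0.31, Sdf2l1 at -0.77 ± 0.43 and Syvn1, a ubiquitin ligase, at 0.35 ± 0.27. On the scale of the authors the medians of this list were positive, at 0.18 and 0.12, below the shifts of 0.21 and 0.43 in all probes. At GD9:12, 18 of 24 were higher, beside 46.2% of all probes, with a median of 0.11.

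Relatives and dimer partners of the 4 factors were mixed. At GD8:15, 17 of 26 tested basic leucine zipper genes were higher (median 0.08), beside 50.1% of all probes. At an unadjusted p under 0.05, 5 were higher and 0 lower, beside 4% and 3.29% of all probes. Besides Jdp2 the 5 were Jund, a Jun family member (1.25 ± 0.35), Nfe2l1, a regulator of proteasome genes (0.25 ± 0.081), the immediate early gene Fos (0.28 ± 0.11) and the repressor Nfil3 (0.67 ± 0.29). At GD9:00, 18 of 26 were higher, beside 51% of all probes (median 0.10, or -0.035 without arsenic replicate 3). Jun, the founding AP-1 member, was higher on 3 of 3 arsenic arrays (1.59 ± 0.52, limma adjusted p = 0.275), while Crebzf, a repressor that binds other factors of the family, was lower on 3 of 3 (-1.24 ± 0.37, adjusted p = 0.252). Atf1, of the CREB family, stood at -0.70 ± 0.25. The C/EBP partners Cebpg (0.04 ± 0.17 and 0.09 ± 0.19) and Cebpd (-0.08 ± 0.25 and 0.32 ± 0.27), and Nfe2l2, which encodes the antioxidant regulator NRF2 (0.07 ± 0.17 and 0.14 ± 0.18), had differences smaller than or close to their SE at GD8:15 and GD9:00.

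The probes most like each member were sought among 7165 tested genes by Pearson correlation over the 22 arrays. For Atf4 these were Stc2 (0.83), Slc1a4 (0.81), Atf5 (0.79), Ogg1, a DNA repair glycosylase (0.76), and Klf10, a zinc finger factor (0.76). For Atf5 they were Atf4 (0.79), Glyr1 (0.78), the mitochondrial ribosomal gene Mrpl45 (0.78), Bfar (0.77) and Cpne6 (0.76). For Ddit3 they were Jdp2 (0.77), the heat shock gene Hspa1b (0.74), the lysosomal protease Ctsa (0.70), Rgs5 (0.70) and Slc3a2, the heavy chain of amino acid transporters (0.70). For Atf3 they were Alpk3 (0.86), Chac1 (0.85), Jdp2 (0.84), Osbpl10 (0.83) and Hpn (0.80). By rank correlation 3 of the 5 neighbours of Atf4 and 3 of Atf5 were the same genes, and 0 of those of Ddit3 and Atf3. Array, stage and arm are shared by all these points, so no p is given. Of the neighbours of Ddit3, Ctsa, Rgs5 and Slc3a2 had probe numbers of 821, 224 and 237, against 747 for Ddit3. Jdp2 and Hspa1b lay farther off, at 5300 and 4021. The part of probe position in these correlations was not tested.

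On single arrays, low values of Atf3 and Ddit3 stood among low values of probes with near probe numbers. In arsenic GD8:15 replicate 2 the 31 probes around Atf3 had a median of -0.34 relative to their own medians over the arrays, against -0.05 to 0.11 on the other 3 replicates, where Atf3 itself read high. Around Ddit3 the median was -0.23 in replicate 4 and 0.19 in replicate 3. Subtracting a running median of neighbouring probes, an alternative chosen after seeing the data, left the arsenic differences at GD8:15 at 0.87 for Atf3, 0.47 for Ddit3, 1.23 for Atf4 and 0.74 for Atf5. With runs of low signal left out, Atf4 stood at 0.93, since control replicate 1 read low around that probe too, at -0.31.

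**Figure D5:**
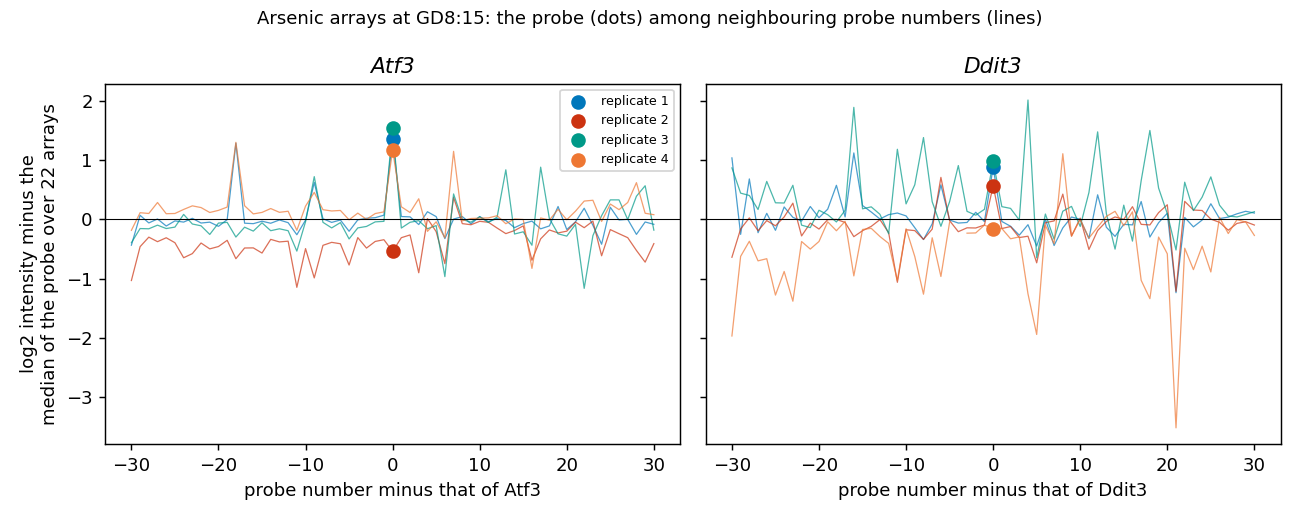
Log2 intensity of probes within 30 probe numbers of Atf3 and Ddit3 on the 4 arsenic arrays at GD8:15, each relative to the probe's median over the 22 arrays; lines join neighbouring probe numbers and large dots mark the named probe. The line of replicate 2 runs low around Atf3, and that of replicate 4 around Ddit3, the replicates in which the named probe also reads lowest.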

How the data were processed

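RNA of the anterior neural tube was amplified, labelled with biotin and hybridised to 1-colour CodeLink UniSet 10K arrays, per the labels. The deposited values are linear intensities that the authors scaled to an array mean of 600 at GD8:15, 500 at GD9:00 and 1000 at GD9:12, as the values show; scanner, background correction and scaling method are not given in the sources used here. The 838 values of 1 or 2, far below the next value of 56, were set to missing. Log2 values of the deposited intensities were quantile-normalised, and 7833 of 10500 probes were tested, those with a mean above the lowest 25% and no group with fewer than 2 values.

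R 4.3.3 with limma 3.58.1 fitted 6 group means to all 22 arrays (lmFit, eBayes), with Benjamini-Hochberg adjustment over 7833 probes and a threshold of 0.05. Figures were drawn with Python 3.11.15 and matplotlib 3.10.9. The fit was tested on simulated data with independent noise for each probe and array. Those data hold no runs of low signal, so the test does not cover them. Symbols come from the platform annotation; 9378 probes have 1 symbol, 8 several and 1114 none. Gene positions and promoters are from RefSeq on GRCm38.p6; the place of a probe in its gene is not given in the sources used here. Named genes are the 4 members, the 5 probes most like each, and up to 5 genes of lowest p per pathway list at GD8:15 and GD9:00; sex-linked genes and other list members were chosen after their values were seen. Members and lists were chosen with earlier results of these data known. Alternatives covered normalisation, placeholder values, filter, array weights, runs of low signal, codes in the sample titles, rank correlation, exact permutation tests and leaving out each array. The number of arrays limits the precision.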

Additional observations from a re-analysis of the deposited data

How the results depend on the processing

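No paired analysis was possible because the labels give no replicate numbers that arms share. An alternative with another probe of a member was not run, since each member has 1 probe. The arsenic differences of the 4 members at GD8:15, and of Atf3 and Ddit3 at GD9:00, kept their sign under every alternative run. The number of arrays and, for Ddit3 and Atf3, signal near the array median limit what can be called. The cause of the changes below was not tested. Values are log2 differences unless called probe counts.

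On the scale of the authors, Atf4 was 0.49 and 1.09 for control GD9:12 minus GD9:00 and minus GD8:15 (the latter past the threshold), and 0.25 and -0.27 for the same pairs in the arsenic arm. Atf5 was 0.20 and 0.27 for the control pairs, and -0.24 and -0.47 for arsenic GD9:00 minus GD8:15 and GD9:12 minus GD9:00. Ddit3 was 0.60 for control GD9:12 minus GD9:00 and -0.20 for arsenic GD9:00 minus GD8:15. The arsenic list medians at GD8:15 and GD9:00 were 0.080 and 0.63 for kinases and phosphatase, 0.37 and 0.59 for targets, 0.28 and 0.47 for bZIP relatives, and 0.18 and 0.12 for the IRE1 and ATF6 branches. With array medians subtracted, Atf4 was -0.48 for arsenic minus control at GD9:00, 0.21 for the change of the effect from GD9:00 to GD9:12 and -0.27 for arsenic GD9:12 minus GD8:15; Atf5 was -0.044 at GD9:00, and 0.57 (past the threshold) and 0.067 for control GD9:00 and GD9:12 minus GD8:15.

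With array weights, Atf3 was 0.32 at GD8:15 and 0.30 for arsenic GD9:00 minus GD8:15, Atf4 -0.065 for control GD9:12 minus GD8:15 and -1.30 for arsenic GD9:12 minus GD9:00, Atf5 -0.46 for control GD9:12 minus GD9:00, and Ddit3 1.15 at GD9:00 and -1.14 for arsenic GD9:12 minus GD9:00; all but the first 3 passed. With runs of low signal left out, Atf3 was -0.25 for the change of effect from GD8:15 to GD9:00 and -1.39 for arsenic GD9:12 minus GD8:15, and Atf4 -0.24 for control GD9:12 minus GD8:15 and -1.17 for arsenic GD9:12 minus GD9:00; both arsenic values passed. With the running median subtracted, Atf3 and Ddit3 were -0.95 and -0.70 for arsenic GD9:12 minus GD8:15, and both passed. With the title code as a block, and then with arrays of 1 code per stage, Atf4 was -0.37 and -0.10 for control GD9:12 minus GD8:15, and -1.17 and -1.17 (both past the threshold) for arsenic GD9:12 minus GD9:00, and Ddit3 was 0.0083 and 0.0082 for control GD9:12 minus GD9:00; the code block also gave -1.68 for Atf4 and -1.03 for Atf5 in arsenic GD9:12 minus GD8:15, neither past the threshold. The exact permutation test put Atf4 (1.27) and Atf5 (0.74) at GD8:15 at an unadjusted p of 0.0286.

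Leaving out each array in turn gave these ranges. Atf3: 0.56 to 1.25 at GD8:15, 0.63 to 1.47 at GD9:00, -0.26 to 0.70 for the change of effect from GD8:15 to GD9:00, -0.58 to 0.37 for arsenic GD9:00 minus GD8:15, -1.39 to -0.71 for arsenic GD9:12 minus GD8:15. Atf4: -0.045 to 0.58 at GD9:00, -0.55 to 0.075 for arsenic GD9:00 minus GD8:15, -1.50 to -0.87 for arsenic GD9:12 minus GD9:00, -0.25 to 0.31 for control GD9:12 minus GD8:15. Atf5: 0.22 to 0.60 at GD9:00, -0.26 to 0.0068 at GD9:12, -0.080 to 0.30 for arsenic GD9:00 minus GD8:15. Ddit3: 0.51 to 1.29 at GD9:00, -0.17 to 0.63 for arsenic GD9:00 minus GD8:15, -0.83 to -0.45 for arsenic GD9:12 minus GD8:15, -1.21 to -0.42 for arsenic GD9:12 minus GD9:00, -0.22 to 0.0083 for control GD9:12 minus GD9:00. List medians ran from -0.035 to 0.11 for bZIP relatives at GD9:00, and for kinases and phosphatase from -0.23 to 0.14 at GD8:15, -0.026 to 0.17 at GD9:00 and -0.081 to 0.060 at GD9:12.

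Counts of probes past the threshold moved as follows. For arsenic minus control at GD8:15 (0), it was 3 with placeholder values kept, 5 with a trended robust fit, and 4 with array weights, with runs left out and with the running median subtracted. At GD9:00 (0) it was 110 with array weights, 2 with the code block and 1 under the authors' scaling, array medians and arrays of 1 code. With array weights it was 1 at GD9:12, 13 for the average, 2 and 1 for the changes of effect from GD8:15 to GD9:00 and from GD9:00 to GD9:12, and 1 in the F test (0 in each); the average had 2 under the authors' scaling and the last change 1 with array medians. For control GD9:00 minus GD8:15 (1174) it was 2743 under the authors' scaling, 727 with the stricter filter, 1973 with array weights, 35 with the code block and 632 with arrays of 1 code. For control GD9:12 minus GD9:00 (883) it was 5609, 1364 with array medians, 1802 with array weights, 520 and 510 with the codes, and for GD9:12 minus GD8:15 (604) 1421, 974, 2035, 47 and 192. For arsenic GD9:00 minus GD8:15 (330) it was 151, 62 with array medians, 887 with array weights and 6 with the code block; for GD9:12 minus GD9:00 (304) 1816, 765, 1435 and 463 with the running median; for GD9:12 minus GD8:15 (1082) 1667 with array weights and 7 with the code block. Leaving out 1 array gave 0 to 3 at GD8:15, 0 to 35 at GD9:00, 0 to 1 at GD9:12, 0 to 5 for the average, 0 to 6 and 0 to 1 for the first and last changes of effect and 0 to 4 in the F test; 671 to 1394, 402 to 860 and 290 to 578 for the control pairs GD9:00 minus GD8:15, GD9:12 minus GD9:00 and GD9:12 minus GD8:15; and 145 to 382, 130 to 230 and 694 to 1049 for the same pairs in the arsenic arm.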

Other observations

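Within groups, the genes whose deviations followed Atf3 most closely were F9, Emp1, Gjb6, Faah and Ccn3, with correlations from 0.89 to 0.93 over the 22 arrays. Their probe numbers were 4199, 4369, 4316, 4375 and 4380, against 4281 for Atf3. For Ddit3, at probe number 747, they were Kcnk1 (794), Syt1 (878), Lor (217), Acvr1b (125) and Rai14, which lies far off at 4520, with correlations from 0.72 to 0.76. For Atf5 the closest were Csf2rb2 (0.84) and Ncan (0.83), at 5321 and 5333, near each other but far from 8490. The 5 genes nearest to Atf4 within groups were Klf10 (0.79), Cxcr4 (0.74), Ucp1 (0.74), Eif2s3x, on the X chromosome (0.73), and Tmem14c (0.69). Their probe numbers were 7105, 6867, 6191, 6338 and 7249, against 6863 for Atf4, so Cxcr4 lay close to it. Klf10 was also among the 5 nearest to Atf4 over all arrays.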
